A study of Mus musculus with 12 samples.

Results

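The 33 Hox genes of clusters A, B, C and D that had a microarray probe of their own were followed in the spinal cord of the mouse at the level of the ninth thoracic vertebra (Th9). They were every gene of that kind among the 18194 genes measured, and for each gene the probe with the highest average over the 12 arrays was used, without regard to how it changed. The 48 probes paired with 1 Hox gene fell to cluster A on chromosome 6 (9 genes), cluster B on chromosome 11 (9 genes), cluster C on chromosome 15 (7 genes) and cluster D on chromosome 2 (8 genes). Hoxb8 and Hoxd4 were paired only with probes shared by a neighbouring Hox gene.

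Cord segments were taken from 4 groups of 3 female C57BL/6J mice (C57BL/6 in the labels), all at Th9 and with 1 array for each mouse. Aged injured and young injured mice had received a contusion, a blunt blow of an impactor on the exposed cord, 9 days before the tissue was taken, and aged intact and young intact mice had not been injured. Aged mice were 15 to 18 months old and young mice 2 to 3 months old. No transgene or deletion is given for any group. No drug is given other than anesthetics and the heparin in the saline perfused through the heart of injured and intact mice before dissection. Injured mice had ketamine and xylazine and a laminectomy before the blow. Intact mice were described as naive and no sham-operated group is given, so the blow and the surgery cannot be told apart. A segment contains neurons, glia, meninges and vessels and, after injury, cells that came in from the blood, so fewer cells of a type and less RNA per cell cannot be told apart.

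Hox genes encode homeodomain transcription factors that bind DNA with cofactors of the Pbx and Meis families. Their order along each chromosome matches the order in which they are used along the body axis (collinearity): genes with low paralog numbers reach up to the hindbrain, those with middle numbers are used from the brachial to the thoracic cord, and those with the highest numbers are used in the lumbosacral cord and tail. In the embryo this code sets the identity of motor neurons at each level, and part of it persists in adult neurons and glia. Polycomb proteins keep the genes silent in cells that should not use them, and trithorax proteins keep them active.

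The signals are linear and were scaled to a trimmed mean of 100 on every array. The median signal was 20.4 to 23.9 per array, and a signal of 50, the cutoff of the study, was passed by 35.05% to 36.73% of the probes of an array. Most markers of tissue outside the cord were low in intact cords, but Lgr5, 1 of 5 kidney and gut markers, read 98.0 to 114.1. All 5 measured forebrain and midbrain markers (Emx1, Emx2, Otx1, Otx2 and Neurod6), all 4 measured markers of dorsal root ganglion neurons, all 5 of cartilage and bone and 5 of 6 of skeletal muscle had a mean under 50 in intact cord. Of 6 motor neuron markers, Chat, Slc18a3, Slc5a7, Isl1 and Mnx1 also had a mean under 50 and Prph alone was above it. Among injured cords 2 stood apart. Aged injured replicate 1 had a summed signal of 9 neuron markers of 1298, against 9675 and 6092 in the other 2 aged injured cords and 6703 to 10429 in young injured cords, so results that rest on it are given with and without it. Young injured replicate 2 had higher signals of sensory neuron genes than the other 2 young injured cords, with 73.5 against 11.5 and 9.0 for Scn11a and 63.9 against 13.5 and 17.1 for Avil. The muscle gene Acta1 read 133 in young injured replicate 1, against 49.5 and 54.1 in the other 2.

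Signals of different probes are not on 1 scale, so each gene was set only against the cutoff. Over the 6 intact cords, 14 of 33 Hox genes had a mean above 50, beside 50.8% of all genes. They were Hoxa5, Hoxa7, Hoxa9, Hoxb2, Hoxb3, Hoxb5, Hoxb6, Hoxb9, Hoxc4, Hoxc6, Hoxc8, Hoxc9, Hoxd8 and Hoxd9. The same 14 genes were above 50 in aged intact and in young intact cord taken alone. After injury the number was 9 in aged and 13 in young cord: Hoxc6 was under 50 at both ages, and Hoxa7, Hoxb5, Hoxc4 and Hoxd9 were under 50 in aged injured cord only. Over all 12 arrays 13 genes were above 50, every one of the 14 except Hoxc6.

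Genes above the cutoff sat in the middle of the paralog series. Of 7 genes with paralog numbers 1 to 3, only Hoxb2 and Hoxb3 were above 50 in intact cord, with 125 ± 6.41 and 173 ± 12.8 (SD, n = 6). Of 16 genes with numbers 4 to 9, 12 were above it, among them both genes measured of number 6, both of number 8 and all 4 of number 9. None of 10 genes with numbers 10 to 13 was above it. The 4 that were under 50 in the middle stretch were Hoxa4, Hoxb4, Hoxb7 and Hoxc5. The mean nearest above the cutoff was that of Hoxc6 (54.2 ± 6.40), and the nearest below it were those of Hoxb4 (43.9 ± 3.16), Hoxc10 (42.5 ± 20.2) and Hoxd3 (41.2 ± 8.70; SD, n = 6 each).

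**Figure D1:**
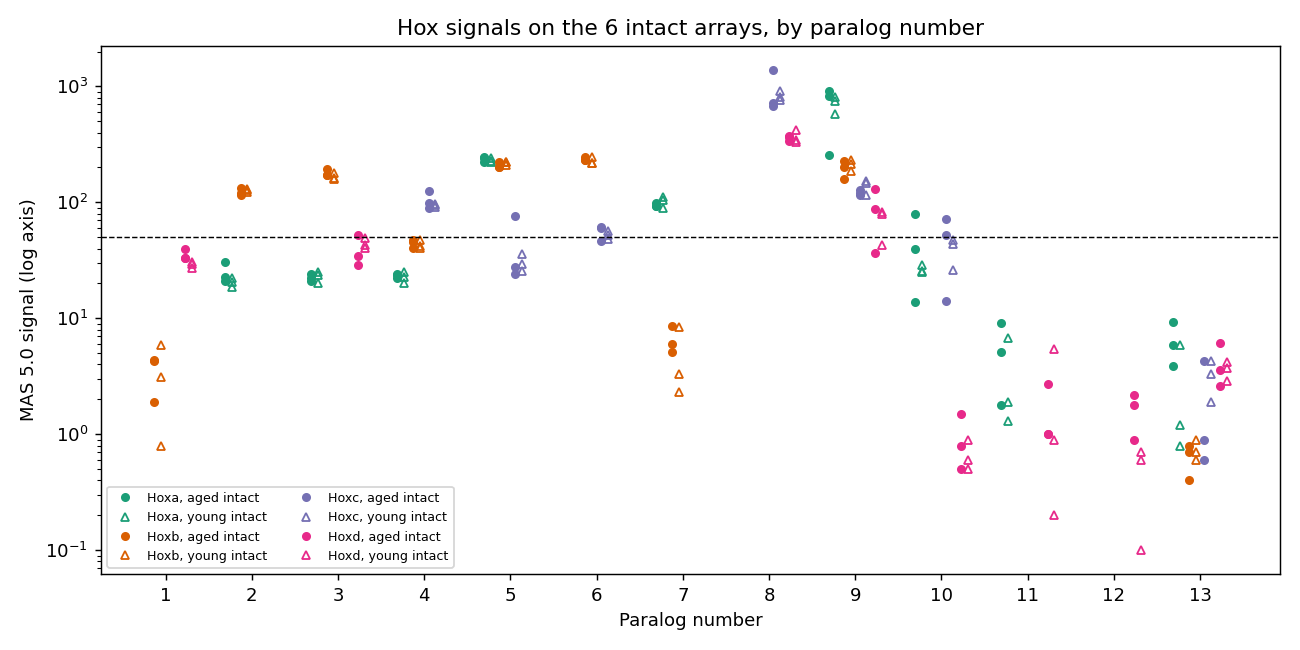
Signal (log axis) of the 33 Hox genes in the 6 intact cords by paralog number; points are single arrays, and the dashed line marks a signal of 50. Means above 50 lie at numbers 2 to 9, and none of the 10 genes of numbers 10 to 13 has one.

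The highest paralog numbers, genes of the lumbosacral cord and the limb and tail end of the embryo, were close to the floor of the array. The 7 genes of numbers 11 to 13 stayed between 0.1 and 9.4 on every one of the 12 arrays, injured cords included. Of number 10, Hoxd10 reached at most 2.5, whereas Hoxa10 reached 80.0 and Hoxc10 71.5, each in aged intact replicate 3. Both genes help to set the lumbar motor neuron program in the embryo. In the intact cords Hoxa10 read 13.7, 39.7 and 80.0 in aged mice and 25.3, 25.5 and 29.1 in young mice, and Hoxc10 read 14.1, 51.9 and 71.5 in aged mice and 43.8, 25.9 and 47.6 in young mice. The aged intact cords were thus spread more widely than the young ones for both genes.

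A wide spread was also found in 2 of the 4 genes of number 9. Hoxa9, used in thoracic and lumbar cord and in blood stem cells, read 255, 833 and 907 in aged intact and 810, 582 and 748 in young intact cord. Hoxd9, which acts with it in limb and motor neuron patterning, read 36.7, 87.9 and 131.4 in aged intact and 79.2, 43.1 and 82.0 in young intact cord. Aged intact replicate 1 was the lowest of the 6 for both. For Hoxa9 it differed by -1.77 on the log2 scale from the mean of the other 2 aged intact cords. Its readings for Hoxd9, Hoxa10 and Hoxc10 lay under 50, so no size is given for them. Hoxc9 went the other way, with an SD of 7.15 in aged intact and 20.1 in young intact cord (n = 3 each). A second Hoxa9 probe gave 66.0 in that cord, beside 159 and 147 in the other 2.

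Not all Hox genes of that cord followed. Hoxc8, a regulator of brachial and upper thoracic motor neurons, read 1387 in aged intact replicate 1 and 673 and 724 in the other 2, a difference of 0.99 on the log2 scale. Hoxc5 read 76.4 in that cord and 23.9 and 27.6 in the other 2, and Hoxc4 differed by 0.40 in the same upward direction, while Hoxc9 (-0.02) and Hoxd8 (-0.13) were near the other 2. So in this 1 cord Hoxa9, Hoxd9, Hoxa10 and Hoxc10 had the lowest reading of their group while Hoxc4, Hoxc5 and Hoxc8 had the highest. Hoxb9 was also the lowest there (157.8 against 225.6 and 201.4, a difference of -0.43). Hoxb5 (222.1 against 202.3 and 202.5) and Hoxc6 (61.3 against 46.0 and 60.5) were also the highest. With ties included, this cord was the lowest of its group for 7 of 14 tested Hox genes and 32.4% of all genes tested. Among the 14 tested Hox genes 2, Hoxa9 and Hoxd9, lay lower there by more than 1 on the log2 scale, as did 0.457% of all genes tested. The summed neuron signal of this cord was 21010, against 21254 and 20579 in the other 2 aged intact cords. Its sums of motor neuron markers (423.9 against 320.9 and 280.7) and skeletal muscle markers (236.6 against 65.2 and 122.6) were the highest of its group. In both of these lists 5 of 6 markers had a mean under 50 in intact cord.

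**Figure D2:**
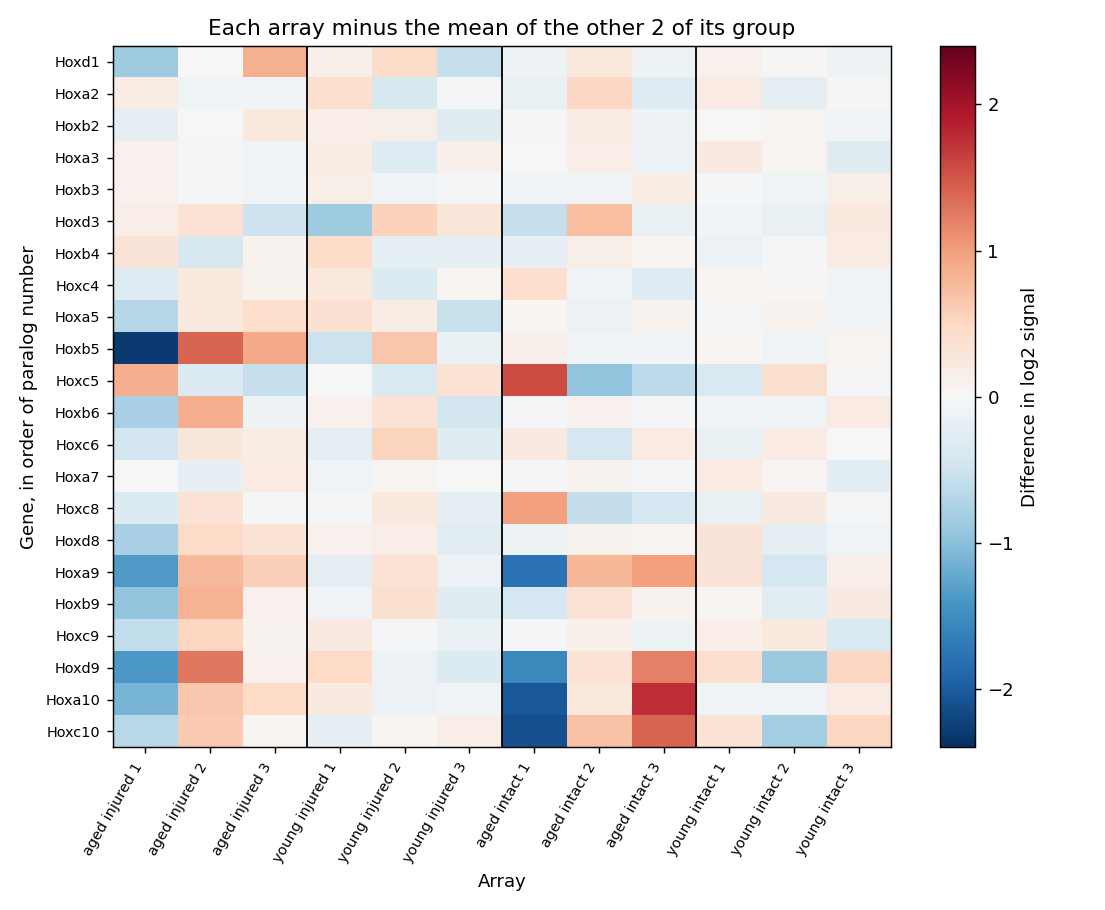
Difference of each array's log2 signal from the mean of the other 2 arrays of its group, for Hox genes in order of paralog number (colour scale in log2 units). Aged intact replicate 1 is low for Hoxa9, Hoxd9, Hoxa10 and Hoxc10 and high for Hoxc5 and Hoxc8, and aged injured replicate 1 is low for most genes.

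Hoxa9 and Hoxd9 were the tested Hox genes lower by more than 1 on the log2 scale in aged intact replicate 1. Hoxd8, the neighbour of Hoxd9, was not. The 250 bases before the annotated start are shown for these 3 genes. They are RefSeq sequences of build GRCm38.p6, 5′ to 3′ on the strand of the gene, from chr6:52227371-52227620 on the minus strand for Hoxa9, chr2:74697513-74697762 on the plus strand for Hoxd9 and chr2:74704365-74704614 on the plus strand for Hoxd8. Capitals mark ATTA or its reverse complement TAAT, the core that homeodomains bind.
Hoxa9: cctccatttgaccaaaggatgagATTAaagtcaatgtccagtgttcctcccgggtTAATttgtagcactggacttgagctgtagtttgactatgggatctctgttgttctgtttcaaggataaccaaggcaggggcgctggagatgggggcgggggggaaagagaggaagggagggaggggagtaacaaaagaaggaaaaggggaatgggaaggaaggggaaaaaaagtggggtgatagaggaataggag
Hoxd9: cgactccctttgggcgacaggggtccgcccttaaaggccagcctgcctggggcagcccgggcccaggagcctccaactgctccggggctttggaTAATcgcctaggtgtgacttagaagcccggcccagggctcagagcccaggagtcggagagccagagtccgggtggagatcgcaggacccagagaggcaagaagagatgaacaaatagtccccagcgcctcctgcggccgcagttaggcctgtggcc
Hoxd8: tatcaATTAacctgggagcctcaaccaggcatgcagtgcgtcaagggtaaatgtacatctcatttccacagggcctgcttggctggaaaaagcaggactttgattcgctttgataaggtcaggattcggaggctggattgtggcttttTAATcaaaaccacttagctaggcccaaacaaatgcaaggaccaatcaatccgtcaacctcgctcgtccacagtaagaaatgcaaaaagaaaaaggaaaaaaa
The core occurred 2 times before Hoxa9, 1 time before Hoxd9 and 2 times before Hoxd8. It was present before 5 of the 6 tested Hox genes that the RefSeq table holds, and before 54.9% of 32851 promoters of the same length, so most promoters hold it. The letters TGATTNAT, a form of the joint Pbx and Hox site, were in none of these 3 windows and in 2.80% of all promoters. The GC content was 49.6% before Hoxa9, 65.2% before Hoxd9 and 44.4% before Hoxd8, beside a median of 52.4% over all promoters. Such matches describe letters only.

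Nearly every Hox gene above the cutoff was lower in injured than in intact cord. A gene was tested where its mean passed 50 in at least 1 group, which held for 10511 genes and 14 Hox genes. All 14 were above 50 in intact cord, so genes that only injury brings above 50 are not among them. Differences were fitted on the log2 scale with limma over all 12 arrays, and a gene was called at a Benjamini-Hochberg adjusted p under 0.05 over all genes tested. In aged mice 13 of 14 fell and 0 rose, where 39.9% of all genes tested fell and 35.6% rose. In young mice 12 of 14 fell and 0 rose, where 34.1% of all genes tested fell and 33.9% rose. The median difference of the 14 genes was -1.19 in aged and -0.70 in young mice, and that of all genes tested was -0.04 in aged and 0.00 in young mice. In aged mice the 3 injured arrays all lay below the 3 intact ones for 11 of 14 genes (41.6% of all genes tested), and in young mice for 12 of 14 (38.7%). Without aged injured replicate 1 and aged intact replicate 1 together, 13 of 14 fell in aged and 13 of 14 in young mice. Without young injured replicate 2, 11 of 14 fell in young mice. Fewer fell there when young injured replicate 1 or 3 or any 1 of the young intact replicates was left out. Hoxa9 and Hoxc8 lost their call in each of these latter fits. Hoxc9 lost its call as well without young injured replicate 3, young intact replicate 1 or young intact replicate 2.

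**Figure D3:**
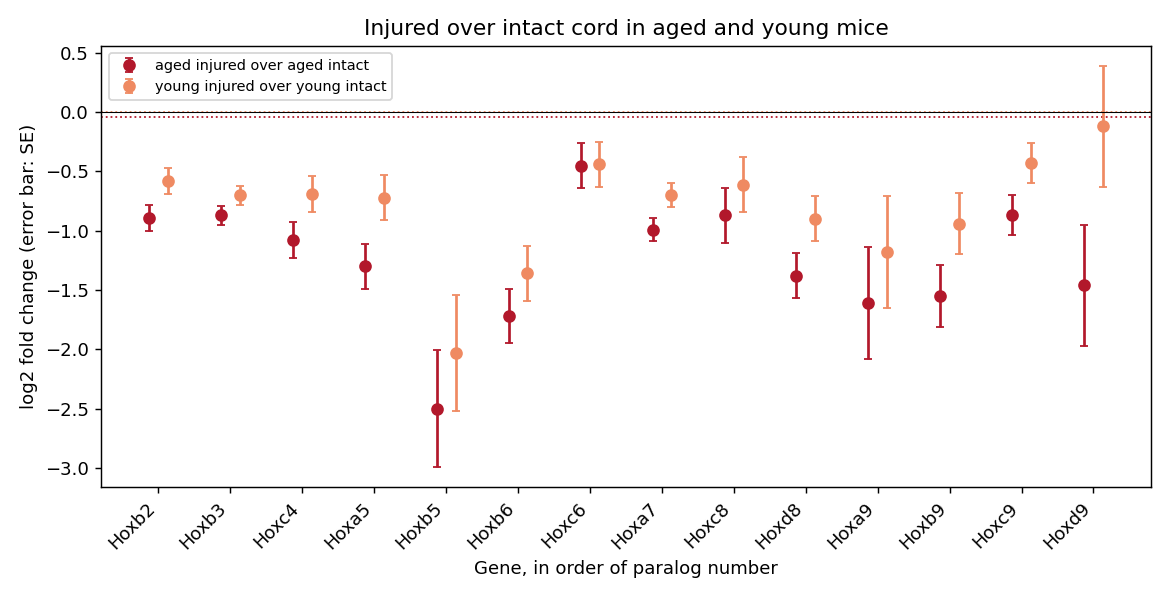
Log2 difference in signal, injured minus intact, with its standard error for the 14 tested Hox genes in aged and young mice (3 cords a group). All 14 estimates lie below 0 at both ages, from -2.50 to -0.45 in aged and from -2.03 to -0.12 in young mice.

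Of the genes with numbers 1 to 3, only Hoxb2 and Hoxb3 were tested, and both fell at both ages. Hoxb2, a hindbrain gene of facial motor neurons, read 59.3, 66.1 and 74.0 in aged injured cord, against 120, 133 and 115 in aged intact cord, and fell by 0.89 (SE 0.11, adjusted p = 3.59e-05). In young mice it read 91.3, 90.1 and 73.6 after injury, against 127, 130 and 123 in intact cord, and fell by 0.58 (adjusted p = 9.11e-04). No injured cord reached the level of an intact one. Hoxb3, its neighbour with a role in hindbrain segments and upper cord, had the tightest values: 103, 96.6 and 95.4 in aged injured against 172, 174 and 195 in aged intact cord, and 109, 98.0 and 100.1 in young injured against 164, 158 and 178 in young intact cord. It fell by 0.87 in aged mice (SE 0.08, adjusted p = 4.98e-06) and by 0.70 in young mice (adjusted p = 3.38e-05), and the groups did not overlap.

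Hoxb5 and Hoxb6, neighbours in the middle of cluster B that are used from the brachial cord downwards, had among the largest decreases. Hoxb5 read 12.8, 70.1 and 56.2 in aged injured cord, against 222, 202 and 203 in aged intact cord, which was at least 4.18-fold lower since the injured mean lay under 50. Fitted log2 values of such a gene are no measure of its fold. In young mice it read 42.3, 73.2 and 49.7 after injury, against 222, 209 and 225 in intact cord, a 3.97-fold lower mean. All 6 injured cords lay far below all 6 intact ones, whatever the age, and the fitted differences were -2.50 in aged (adjusted p = 8.04e-04) and -2.03 in young mice (adjusted p = 0.00397). Without aged injured replicate 1, the lowest of them, the difference in aged mice was -1.73 (adjusted p = 4.60e-06). Hoxb6 averaged 75.0 ± 29.4 in aged injured and 236 ± 9.12 in aged intact cord, and 89.6 ± 15.9 in young injured and 228 ± 17.3 in young intact cord (SD, n = 3 each). Its single cords read 50.1, 107.4 and 67.6 in aged injured and 92.6, 103.8 and 72.4 in young injured mice, below the lowest intact cord of either age at 217. It fell by 1.72 in aged mice (adjusted p = 5.04e-05) and by 1.36 in young mice (adjusted p = 3.68e-04).

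Genes of numbers 4, 5 and 7 in clusters A and C also fell at both ages. Hoxa5, needed for neck and upper thoracic identity and for the phrenic motor neurons of breathing, read 70.2, 107.2 and 117.2 in aged injured cord, against 242, 221 and 245 in aged intact cord. Young injured cords read 165, 151 and 109, against 227, 240.4 and 224 in young intact cords. The injured and intact cords did not overlap, and Hoxa5 fell by 1.30 in aged (SE 0.19, adjusted p = 9.86e-05) and by 0.72 in young mice (adjusted p = 0.00569). Hoxa7, a gene of the thoracic vertebrae, averaged 48.2 ± 4.30 in aged injured and 95.7 ± 3.18 in aged intact cord, and 62.2 ± 2.21 in young injured and 101 ± 10.9 in young intact cord (SD, n = 3 each). It fell by 0.99 in aged mice (SE 0.10, adjusted p = 1.06e-05) and by 0.70 in young mice (adjusted p = 1.80e-04). Since the aged injured mean of Hoxa7 lay under 50, it was at least 1.915-fold lower. Hoxc4, a gene of the cervical level, read 42.3, 54.3 and 50.7 in aged injured against 124, 99.1 and 89.3 in aged intact cord, and 65.7, 50.4 and 60.4 in young injured against 96.7, 95.4 and 90.8 in young intact cord. Its injured cords lay below the intact ones at both ages, and it fell by 1.08 (adjusted p = 6.55e-05) in aged and by 0.69 (adjusted p = 0.00183) in young mice. The aged injured mean of Hoxc4 was 49.1, under 50, and thus at least 2.085-fold lower.

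Hoxc6, which marks the brachial cord and limb-level motor neurons, was not called at either age. Its injured cords read 33.0, 46.0 and 43.7 in aged and 34.5, 49.1 and 33.7 in young mice, against 61.3, 46.0 and 60.5 in aged intact and 48.3, 57.1 and 52.1 in young intact cords. The groups overlapped at both ages. Both injured means lay under 50, so Hoxc6 passed the filter on signal only through intact cord. The difference was -0.45 in aged (SE 0.19, adjusted p = 0.0507) and -0.44 in young mice (adjusted p = 0.0603), just above the threshold, and leaving out aged injured replicate 2, young injured replicate 2 or aged intact replicate 2 brought the first under it (adjusted p = 0.0262 to 0.0378). It was called lower at both ages with quantile normalization (adjusted p = 0.0288 in aged, 0.00953 in young mice) and with arrays centred on the median (0.0427 and 0.0349). Its probe is of a kind that may also bind related transcripts.

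The genes of numbers 8 and 9, which include regulators of the thoracic motor columns, fell in aged mice without exception. Hoxc8 read 412, 564 and 475 in aged injured against 1387, 673 and 724 in aged intact cord, and 534, 600.4 and 487 in young injured against 759, 905 and 808 in young intact cord. It fell by 0.87 in aged (adjusted p = 0.00526) and by 0.61 in young mice (adjusted p = 0.0361), and no injured cord reached an intact one. Without aged intact replicate 1 the decrease in aged mice was 0.54. Hoxd8, a gene of the trunk, read 95.8, 169 and 159 in aged injured against 336, 370.2 and 367 in aged intact cord, and 203, 208 and 173 in young injured against 418, 329 and 347 in young intact cord. It fell by 1.38 (adjusted p = 6.05e-05) in aged and by 0.90 (adjusted p = 0.00150) in young mice, again without overlap.

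Hoxc9, which sets thoracic motor neuron identity and represses the limb-level program in the embryo, had the smallest called decrease in young mice. It read 50.6, 84.2 and 69.2 in aged injured against 120.5, 129.1 and 114.9 in aged intact cord, and 113.1, 99.9 and 95.1 in young injured against 148.1, 153.8 and 116.5 in young intact cord. It fell by 0.87 in aged mice (SE 0.17, adjusted p = 8.15e-04) and by 0.43 in young mice (adjusted p = 0.0421). The aged injured cords were well below every intact cord, whereas the highest young injured cord was close to the lowest young intact one. Hoxb9, its thoracic counterpart in cluster B, averaged 69.7 ± 27.2 in aged injured and 195 ± 34.4 in aged intact cord, and 110.1 ± 18.1 in young injured and 210 ± 22.9 in young intact cord (SD, n = 3 each). It fell by 1.55 in aged (adjusted p = 2.41e-04) and by 0.94 in young mice (adjusted p = 0.00753).

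Hoxa9 and Hoxd9 varied widely within groups. Hoxa9 read 101, 271 and 245 in aged injured cord, and the aged intact values above overlap with them because of aged intact replicate 1 (255). It fell by 1.61 (SE 0.47, adjusted p = 0.00859) with this cord and by 2.20 without it (adjusted p = 4.18e-04). Without aged injured replicate 1 it fell by 1.16 (adjusted p = 0.0219), and the adjusted p reached 0.0403 without aged intact replicate 3. In young mice Hoxa9 read 283, 367 and 292 after injury, below all intact values, and fell by 1.18 (adjusted p = 0.0427). Hoxd9 read 14.4, 49.1 and 28.7 in aged injured and 74.7, 56.1 and 51.7 in young injured cord, overlapping with intact cord at both ages. It fell by 1.46 in aged mice (adjusted p = 0.0212) and was not called in young mice (-0.12, SE 0.51, adjusted p = 0.837). Its aged injured mean of 30.7 lay under 50, so that mean was at least 1.707-fold lower and the fitted value is no measure of the fold. The decrease of Hoxd9 lost its call without aged injured replicate 1, aged intact replicate 2 or aged intact replicate 3 (adjusted p = 0.0625 to 0.0936), and the calls of Hoxa9, Hoxc8 and Hoxc9 in young mice were lost when any of 6, 5 and 8 single cords was left out (adjusted p up to 0.110, 0.106 and 0.133).

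**Figure D4:**
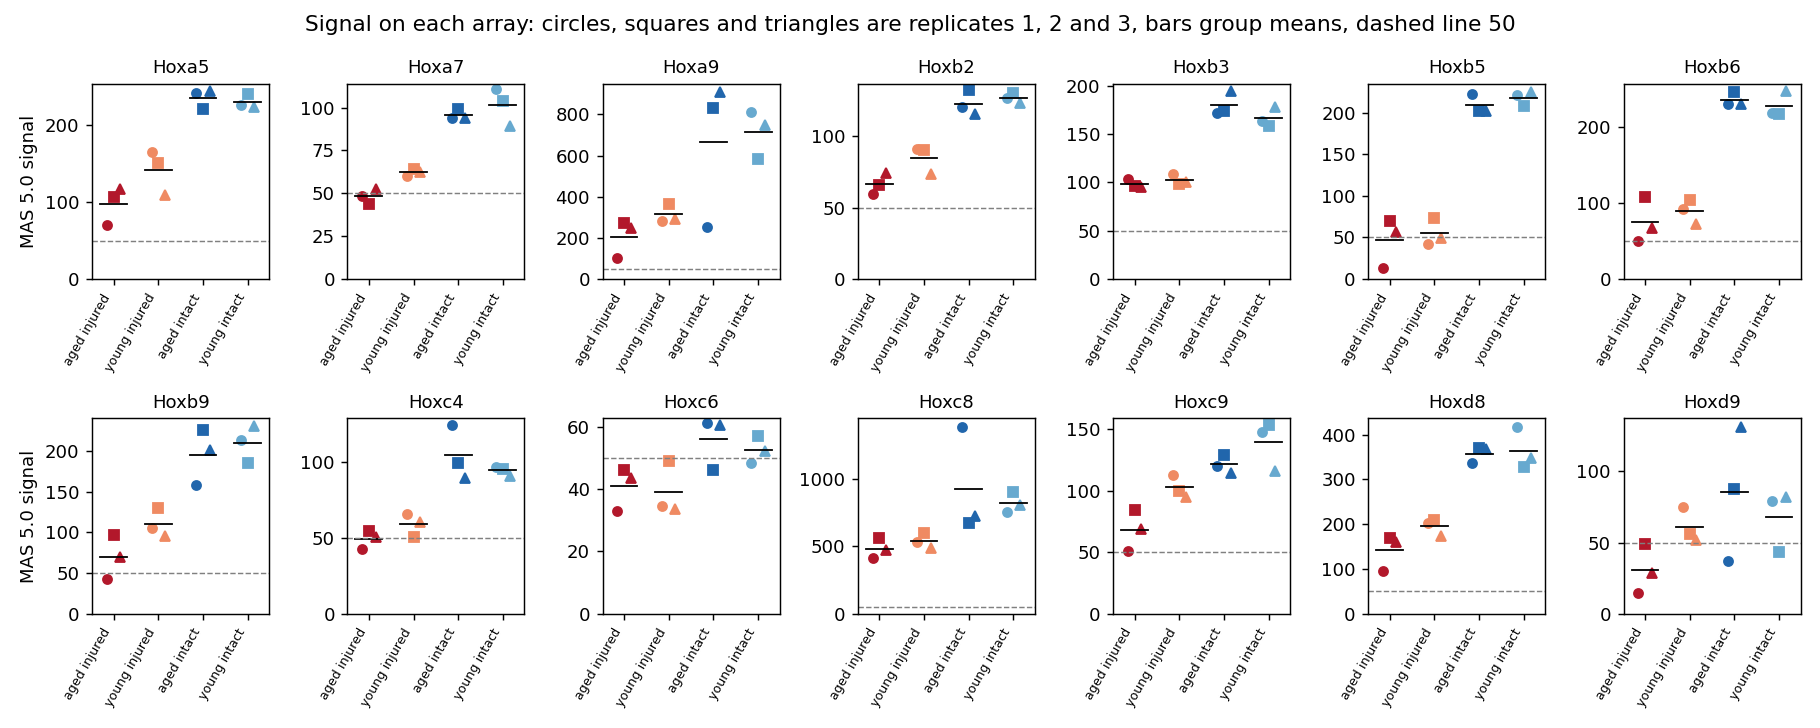
Signal (linear axis) of the 14 tested Hox genes in each cord, with groups ordered aged injured, young injured, aged intact and young intact. Points are single arrays, bars are group means, and the dashed line marks 50. Injured cords lie lower for most genes, and the aged injured points are spread more widely than the aged intact ones for Hoxb5, Hoxb6 and Hoxa5.

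The study set aged against young injured cord with a rule of size, a signal above 50 and a ratio above 2. With means in place of signals, 0 of 13 Hox genes above 50 passed this rule in either direction, where 0.62% of genes were lower and 1.39% higher in aged injured cord. With the same rule between injured and intact cord, 8 Hox genes were lower in aged injured cord (15.8% of genes) and 3 in young injured cord (10.8% of genes). The 3 genes in young mice were Hoxa9, Hoxb5 and Hoxb6. No Hox gene was higher at either age by this rule, which 15.8% of genes in aged and 13.4% in young mice were.

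Other cell types of the cord shifted with injury as well. The summed signal of 9 neuron markers was 1298 to 9675 in aged injured, 6703 to 10429 in young injured, 20579 to 21254 in aged intact and 20091 to 21039 in young intact cord, with 9 of 9 markers lower in aged and 6 of 9 in young mice. Markers of microglia and macrophages (8 of 8 higher at both ages) summed to 24746 to 27656 in aged injured, 21152 to 27290 in young injured, 4789 to 5096 in aged intact and 2698 to 3044 in young intact cord. Fibroblast and meningeal markers (6 of 6 higher at both ages) summed to 10593 to 14426 in aged injured, 11100 to 15050 in young injured, 2384 to 3669 in aged intact and 3558 to 3886 in young intact cord. Oligodendrocyte markers fell in 5 of 7 in aged and 2 of 7 in young mice, and astrocyte markers fell in 5 of 8 in aged mice and rose in 2 and fell in 2 of 8 in young mice. The part of these changes in the Hox signals was not tested.

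The 19 Hox genes with no group mean above 50 were left out of the test above. In a fit without that filter, 17 of 33 Hox genes fell and 2 rose in aged mice (26.9% and 24.1% of 18194 genes), and 13 fell and 1 rose in young mice (21.1% and 23.4%). Hoxa4, Hoxd1 and Hoxd3, genes of anterior position, fell at both ages. Hoxd1 read 7.8, 11.6 and 17.2 in aged injured against 33.0, 39.6 and 33.0 in aged intact cord, and 15.9, 18.4 and 11.6 in young injured against 30.5, 29.4 and 27.3 in young intact cord. These values lie under the cutoff, so no fold is given. Hoxa3, a gene of the pharyngeal arches and hindbrain, was the only one higher at both ages, with 37.2, 34.6 and 34.5 in aged injured against 22.1, 23.9 and 20.8 in aged intact cord, and 41.1, 32.9 and 40.3 in young injured against 25.3, 23.6 and 20.0 in young intact cord. Another Hoxa3 probe ran the other way, with means of 13.1 in aged injured, 21.2 in young injured, 28.5 in aged intact and 27.3 in young intact cord, so the direction of Hoxa3 is uncertain. Hoxc13 was higher in aged injured cord only, at signals under 10.

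Where a Hox gene had further probes, most ran the same way. The second probes of Hoxa5 (-1.42 in aged, -0.69 in young mice), Hoxa9 (-1.23 and -0.89), Hoxb3 (-0.61 and -0.49) and Hoxd8 (-1.41 and -1.22) were lower after injury at both ages. The probe shared by Hoxb8 and Hoxb7 read 55.5, 114.0 and 104.1 in aged injured against 281, 286 and 294 in aged intact cord, and 104.3, 145.1 and 114.0 in young injured against 315, 291 and 377 in young intact cord. It cannot be assigned to either gene. The probe of Hoxb7 alone stayed under 10 in all cords.

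Between aged and young injured cord, 1 of 14 Hox genes was called, where 4.58% of all genes tested were lower and 4.41% higher. This was Hoxc9, lower by 0.62 on the log2 scale in aged injured cord (SE 0.17, adjusted p = 0.0469), with every aged injured value under every young injured one. The call was lost in 11 of 12 fits that left out 1 cord (adjusted p = 0.0519 to 0.114). Of the 14 estimates 13 were negative, beside 56.1% of all genes tested, with a median of -0.44 against -0.04. Arrays did not overlap for 5 genes, Hoxa7, Hoxa9, Hoxc9, Hoxd8 and Hoxd9, all lower in aged injured cord (14.1% of all genes tested were so). Hoxa7 read 48.4, 43.8 and 52.4 in aged injured against 59.9, 64.3 and 62.5 in young injured cord, and differed by -0.37 (adjusted p = 0.0505). Hoxd9 differed by -1.14 with a standard error of 0.51 (adjusted p = 0.159), and Hoxb9 by -0.73 (adjusted p = 0.0910). Hoxb3 (-0.06) and Hoxc6 (0.07) had the estimates nearest 0.

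Much of this difference lay in 1 cord. Aged injured replicate 1 was the lowest of its group for 12 of 14 Hox genes and for 42% of all genes tested, and lay below the mean of the other 2 aged injured cords by a median of 0.63 over the Hox genes and 0.00 over all genes tested. Of all genes tested, 8.73% lay lower there by more than 1 on the log2 scale, against 0.0761% to 0.466% in the other cords. The cord read 101 for Hoxa9, lower by 1.35 on the log2 scale, and 12.8 for Hoxb5 and 14.4 for Hoxd9, both far under 50. This was also the cord with the lowest neuron sum. Sums of astrocyte (7772 against 12471 and 11764), oligodendrocyte (14780 against 20346 and 19450) and precursor markers (1278 against 1865 and 2173) were also the lowest of its group. Its sums of microglia and macrophage (27656 against 24746 and 27183) and fibroblast and meningeal markers (14426 against 10593 and 12335) were the highest. Their part in the Hox signals was not tested. Without aged injured replicate 1, the aged minus young injured difference was -0.31 for Hoxa5, -0.41 for Hoxb9, -0.06 for Hoxb6, 0.23 for Hoxb5 and -0.42 for Hoxc9, and 0 Hox genes were called. Without aged injured replicate 2, 6 were called: Hoxa5, Hoxb6, Hoxb9, Hoxc9, Hoxd8 and Hoxd9.

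**Figure D5:**
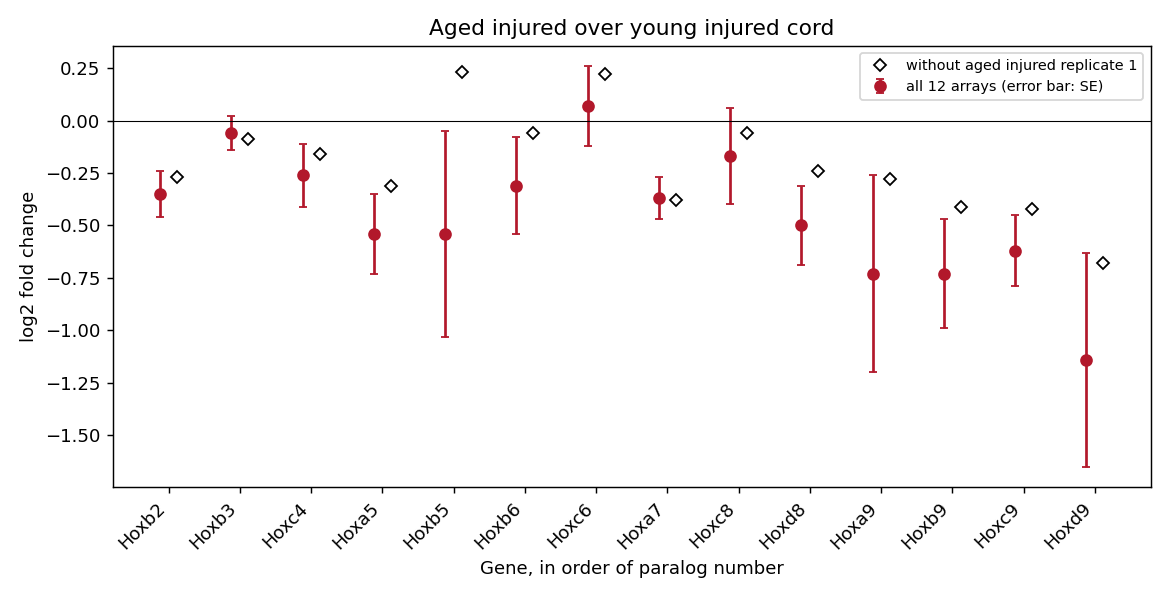
Log2 difference in signal between aged and young injured cord, aged minus young, for the 14 tested Hox genes, with all 12 arrays and without aged injured replicate 1. With all arrays 13 of 14 estimates are below 0, and without that cord most move towards 0, Hoxb5 to 0.23.

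Between aged and young intact cord no Hox gene was called by limma, and none had an unadjusted p under 0.05 (0.809% of all genes tested were called in either direction). The estimates were -0.29 to 0.20, the lowest adjusted p was 0.766 and the median was 0.01. For Hoxb3, the most precise, the difference was 0.11 with a standard error of 0.08, while for Hoxd9 it was 0.20 with a standard error of 0.51. The spread of each gene is shared over all 12 arrays in this fit, so the standard error of 0.49 for Hoxb5 also holds the wide injured cords. The intact cords of Hoxb5 were close together, at 222, 202 and 203 in aged and 222, 209 and 225 in young mice.

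Whether injury changed the Hox genes more in aged than in young mice was tested as the interaction of age and injury. No Hox gene was called by limma and none had an unadjusted p under 0.05, beside 0.438% of all genes tested that were called. All 14 estimates were negative, from -1.34 for Hoxd9 to -0.01 for Hoxc6, with a median of -0.41, and 58.6% of all genes tested were also negative. The shared sign depended on single cords. Without aged injured replicate 1, Hoxb5 differed by 0.23 between aged and young injured cord and by -0.06 between aged and young intact cord. Its interaction was thus positive without that cord. Without young injured replicate 2, the injury difference of Hoxc6 was -0.45 in aged and -0.62 in young mice, so its interaction was positive as well. The smallest adjusted p was 0.318, for Hoxa5 (-0.57, SE 0.27). This contrast uses the same 12 cords as those above and is no separate evidence.

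Of the partners of Hox proteins, the TALE homeodomain cofactors, 5 of 9 tested rose and 4 fell in aged mice, and 3 rose and 3 fell in young mice. Of all genes tested, 35.6% rose and 39.9% fell in aged and 33.9% rose and 34.1% fell in young mice, which are the shares to set beside this count and those of the next 3 lists. Meis2, which binds DNA beside Hox proteins, averaged 101 in aged injured against 360 in aged intact cord (-1.91, adjusted p = 5.14e-05) and 127 in young injured against 326 in young intact cord (-1.37, adjusted p = 7.08e-04). Meis1 (-1.01 in aged, -0.83 in young mice) and Pbx3 (-0.75 and -0.63) fell too. Injured means of Meis1 lay under 50, at least 1.452-fold lower in aged and 1.495-fold lower in young mice. Meis1 thus passed the filter on signal only through intact cord, so it was tested because it was higher there. Tgif1, a repressor of the same homeodomain class that acts in TGF-beta signaling, averaged 124 in aged injured against 20.7 in aged intact cord and 101 in young injured against 16.1 in young intact cord, and Tgif2 and Pbxip1 rose with it. The members thus moved in both directions (median 0.28 in aged and 0.13 in young mice). Tgif1 and Tgif2 passed the filter on signal only through injured cord, so they were tested because they were higher there.

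Of 22 Polycomb and trithorax regulators tested, 7 rose and 7 fell in aged and 6 rose and 2 fell in young mice, with a median of 0.06 at both ages. Ezh2, the methyltransferase of Polycomb complex PRC2 and a gene of dividing cells, averaged 159 in aged injured against 41.7 in aged intact cord (1.89, adjusted p = 8.77e-06) and 121 in young injured against 44.9 in young intact cord. Its PRC2 partner Eed (0.78 in aged, 0.66 in young mice) and the ubiquitin ligase Rnf2 (1.12 and 1.18) rose at both ages, whereas Cbx7, a reader of the Polycomb mark, fell by 1.17 in aged and by 0.72 in young mice. Injured means of Cbx7 lay under 50, at least 1.827-fold lower in aged and 1.481-fold lower in young mice. Cbx7 thus passed the filter on signal only through intact cord, so its decrease adds little to the counts. Of 14 measured retinoic acid receptors and upstream regulators only 6 passed the filter on signal, of which 5 rose and 0 fell at each age (35.6% of all genes tested rose in aged and 33.9% in young mice). Egr2 and Rarg of this list, and Ezh2 above, passed the filter only through injured cord. The filter thus admitted these genes because they were higher there, and their rise adds little to the counts. Egr2, a regulator of hindbrain Hox genes that is also used by Schwann cells and macrophages, averaged 88.5 in aged injured against 7.47 in aged intact cord, and 70.8 in young injured against 8.37 in young intact cord. Gmnn, an inhibitor of DNA replication licensing, was the 1 gene of these lists called between aged and young injured cord (225 against 115, a difference of 0.93, adjusted p = 0.0161).

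Genes beside the clusters did not share 1 direction. Of 13 tested, 4 rose and 8 fell in aged and 3 rose and 7 fell in young mice. Skap2, an adaptor of immune cells next to cluster A, averaged 737 in aged injured against 281 in aged intact cord (1.38) and 657 in young injured against 229 in young intact cord (1.52). Chn1, a signaling gene of neurons near cluster D, fell by 2.59 in aged and by 2.05 in young mice, and Atf2, a transcription factor there, by 0.58 at both ages. The noncoding Hoxd3os1 fell by 1.21 in aged and by 0.70 in young mice. Its aged injured mean of 32.0 lay under 50, at least 1.473-fold below the aged intact mean. Hoxb5os, an opposite-strand transcript of the Hoxb5 region, read 136.4, 149.2 and 124.9 in aged injured against 177.6, 201.2 and 189.8 in aged intact cord (-0.47, adjusted p = 0.00522), and 204.4, 160.0 and 140.9 in young injured against 200.8, 183.7 and 190.9 in young intact cord (-0.20, adjusted p = 0.169).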

How the data were processed

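RNA from Th9 cord segments of 12 mice was hybridized to GeneChip arrays of the mouse genome. The authors converted the scans to signal intensity with the MAS 5.0 algorithm (MAS5 in the submitters' processing notes), and the deposited intensity values are linear and scaled to a trimmed mean of 100 on each array; a software version was not given in the sources used here. Probes were named from the platform annotation: 34958 of 45101 probes had 1 gene, 932 several and 9211 none. Coordinates and promoters come from RefSeq (GRCm38.p6), which held the promoters of 6 of the 14 tested Hox genes. Groups follow the labels, and no 2 arrays were identical.

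Of the single-gene probes of a gene, the one with the highest average over the 12 arrays stood for it. Genes with a mean above 50 in at least 1 group were tested on log2 signals with limma 3.58.1 in R 4.3.3, with 1 mean per group, a trend on mean signal and Benjamini-Hochberg adjustment over 10511 genes. The fit was tested on simulated data. Where 1 group mean was 50 or less, it was set to 50 for an "at least" fold. Fitted log2 differences of such genes belong to the test and are no measure of fold. Named are all Hox genes with a mean above 50 over the 12 arrays or in any group, the others by range, and at most 6 called genes of each further list by smallest adjusted p; Hox genes under 50, their other probes, Hoxb5os and Hoxd3os1 were named after their values were seen. The members and lists were chosen with earlier results of these data known. The scaling, the cutoff and the shared spread could change the numbers, and 3 mice a group limit the precision. Alternatives changed the normalization, filter, probe choice, pseudocount, spread and arrays used.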

Additional observations from a re-analysis of the deposited data

Results flagged for a closer look

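Hoxa10, a gene of the lumbar level, had injury effects of opposite sign at the 2 ages, with a difference between the log2 injury effects of aged and young mice of -2.44. It read 6.4, 14.4 and 13.4 in aged injured against 13.7, 39.7 and 80.0 in aged intact cord (-1.71), and 48.7, 41.3 and 42.5 in young injured against 25.3, 25.5 and 29.1 in young intact cord (0.73). All 3 aged injured cords lay below the mean of the aged intact ones and all 3 young injured cords above the mean of the young intact ones. In the fit without a filter on signal the effect was called by limma in aged mice (adjusted p = 0.0143) and not in young mice (adjusted p = 0.285), and the test of the difference gave an adjusted p of 0.211. A second Hoxa10 probe, at signals of at most 5.0, was higher after injury at both ages (0.62 in aged, 1.10 in young mice). Every group mean was under 50, and the 2 aged groups overlapped in 1 cord of each.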

How the results depend on the processing

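The counts of Hox genes lower after injury in aged and young mice stayed within 1.5 times of 13 and 12 under every alternative run, as did the 14 genes above 50 in intact cord (13 without probes of shared sequence, 10 above a signal of 100). No alternative called a Hox gene between the intact groups or in the interaction. The single call between aged and young injured cord depended on the processing: 0 genes were called with arrays centred on the median, with no filter on signal, with only the arrays of the groups compared, with the mean over all probes of a gene, and without both aged injured replicate 1 and aged intact replicate 1 (chosen after seeing the data), and 2 were called with array weights. Leaving out 1 cord gave 0 to 6. The gene called could also change. With no trend in the spread, limma called Hoxa7 (adjusted p = 0.0408) and not Hoxc9 (adjusted p = 0.0526). The same exchange was found without young intact replicate 3.

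Signs that turned belonged to differences that were not called. In the aged minus young injured comparison, Hoxb5 (-0.54) came to 0.20 with array weights and to 0.23 without both of those cords, and to -1.0 to 0.23 with 1 cord left out (0.23 without aged injured replicate 1). Hoxc6 (0.07) came to -0.22 with the mean over all probes and to -0.02 to 0.25 with 1 cord left out (-0.02 without aged injured replicate 2 or young injured replicate 3, -0.01 without young injured replicate 1). For injury in young mice, Hoxd9 (-0.12) came to 0.07 with array weights and to -0.42 to 0.04 with 1 cord left out (0.01 and 0.04 without young intact replicates 1 and 3). The causes were not tested.

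With the replicate number as a block, the counts were 13 and 12 lower after injury in aged and young mice, 1 between the injured groups, and 0 in the intact comparison and the interaction, so the block changed no count. By the median the numbers showed little pairing of the samples. The correlation of deviations had a median of 0.02 (-0.11 to 0.67) over 18 pairs of the same number. Over 36 pairs of different numbers it was 0.00 (-0.63 to 0.32), so the highest value was in a pair of the same number. Of the 12 arrays, 4 correlated best with an array of their own number. Signals near or below 50 have the least precision, and 3 cords a group limit what can be seen.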
